A study of Mus musculus with 39 samples.

Results

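The 85 nuclear genes of oxidative phosphorylation were described by respiratory complex in 3 tissues, liver, skeletal muscle and white fat (white adipose tissue, WAT), of mice with a letrozole-induced model of polycystic ovary syndrome (PCOS). Members were all protein-coding genes whose symbols begin with Nduf (a, b, c, s or v and a digit), Uqcr, Cox4 to Cox8 or Atp5, together with Sdha, Sdhb, Sdhc, Sdhd and Cyc1. The rule used names only and no measured value. It gave 36 genes for complex I, 4 for complex II, 9 for complex III, 19 for complex IV and 17 for complex V, out of 17785 protein-coding genes and 30671 genes of any kind in the deposited tables. Another 11 genes matched the name patterns but were annotated as pseudogenes or other biotypes and were left out.

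Oxidative phosphorylation passes electrons from NADH (complex I) and succinate (complex II) through complexes III and IV to oxygen, and the proton gradient built on the way drives ATP synthase (complex V). Most subunits are encoded in the nucleus and imported. A small core set is encoded in mitochondrial DNA. Several complex IV subunits exist as alternative isoforms, one common to most tissues and one found mainly in heart and skeletal muscle, and in mice also in brown fat.

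The animals were C57Bl6/J mice. Letrozole, an aromatase inhibitor that blocks the conversion of androgens to oestrogens, had been started before puberty in the PCOS mice. For 6 weeks, beginning at an age of 12 weeks, these mice then took vehicle or roxadustat by mouth. Roxadustat blocks prolyl hydroxylases and thereby stabilises hypoxia-inducible factor (HIF). The control arm had no letrozole and received vehicle, so no arm combined roxadustat with a control background. Liver and muscle each had 4 control, 4 PCOS vehicle and 4 PCOS roxadustat libraries. WAT had 4 control, 6 PCOS vehicle and 5 PCOS roxadustat libraries. The 39 polyadenylated RNA libraries came from 18 mice, 9 of which gave all 3 tissues. Libraries are called here by tissue, arm and the number of the mouse.

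The libraries held 12389970 to 19639244 reads assigned to genes, and members took 0.929% to 2.95% of them. Levels were deposited as FPKM, fragments scaled to gene length and a library size. Where the smallest value of a library is 1 read, that size was 0.776 to 0.931 times the assigned reads in liver. It was 0.697 to 0.864 times the assigned reads in muscle and 1.26 to 1.59 times in WAT. FPKM in WAT were thus divided by more than the assigned reads, and those in liver and muscle by less. Differences are on the log2(FPKM + 0.5) scale with their standard error (SE), and a gene was called, or said to rise or fall, when its Benjamini-Hochberg adjusted p over all genes tested in limma was under 0.05. A count of members with no call is a description of direction. Counts at an unadjusted p, in alternative fits or in the authors' deposited tables have no share over all genes beside them. They do not show that members stood out from other genes. Liver libraries held hepatocyte genes, muscle libraries striated muscle genes and WAT libraries adipocyte genes at high levels. WAT libraries also carried hepatocyte and striated muscle transcripts, with striated muscle markers summing to 6.67 to 334 FPKM against 67837 to 103102 FPKM in muscle. In bulk tissue, fewer cells of a type and less RNA per cell cannot be told apart.

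By FPKM, more members were higher in muscle than in liver or WAT in control mice. The most extreme differences belonged to isoforms of complex IV subunits. Of 83 members tested between muscle and liver, 43 were higher in muscle and 4 lower. Over all genes tested 71.3% were called, 36.6% higher and 34.8% lower. All 4 complex II genes, 19 of 36 complex I genes, 5 of 9 complex III genes, 7 of 17 complex IV genes and 8 of 17 complex V genes were among the members higher in muscle. Sdha, the flavoprotein subunit of succinate dehydrogenase, averaged 241 ± 29.1 FPKM in control muscle and 44.4 ± 10.4 FPKM in control liver (SD, n = 4 each), a log2 difference of 2.45 (SE 0.18, adjusted p = 2.96e-07). Ndufs1, the large iron-sulphur core subunit of complex I, stood at 49.8 ± 3.49 FPKM in muscle and 8.47 ± 0.734 FPKM in liver, and Atp5b, the catalytic beta subunit of ATP synthase, at 676 ± 84.5 and 123 ± 24.7 FPKM. For each of these genes every muscle library lay above every liver library.

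Between control WAT and liver, 26 of 84 members were higher in WAT and 6 lower, while 57.0% of all genes were called, 29.2% higher and 27.8% lower. Between control WAT and muscle, 6 of 85 members were higher in WAT and 35 lower, while 68.9% of all genes were called, 35.9% higher and 33.0% lower. All 4 complex II genes and 9 of 17 complex V genes were lower in WAT than in muscle. Atp5g1, one of several genes for the membrane ring subunit of ATP synthase, averaged 6.25 ± 1.80 FPKM in WAT, 49.2 ± 8.38 FPKM in liver and 82.7 ± 14.4 FPKM in muscle (SD, n = 4 each). Its log2 difference was -2.90 (SE 0.21, adjusted p = 5.46e-07) between WAT and liver. As a share of assigned reads, members took 2.29 ± 0.457% in control WAT, 2.12 ± 0.549% in control muscle and 1.17 ± 0.147% in control liver. By that measure the members together were not lower in WAT than in muscle, and the ranges of these tissues overlapped. The part of the scaling of FPKM in the counts between tissues was not tested. RNA from WAT was extracted with another kit than RNA from liver and muscle, so tissue and kit cannot be told apart in comparisons with WAT.

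The highest members differed by tissue. Per length, the top member averaged over all arms was Cox6a1 in liver (820 FPKM), Cox6a2 in muscle (1385 FPKM) and Cox8a in WAT (694 FPKM), all small subunits of complex IV. In complex I the top member was Ndufa2 in liver and WAT (316 and 209 FPKM). In complex III it was Uqcrq in liver (567.6 FPKM), the Rieske iron-sulphur protein gene Uqcrfs1 in muscle (424 FPKM) and Uqcr10 in WAT (243 FPKM). Ndufb2 was the lowest complex I member in all 3 tissues, at 3.53, 3.69 and 1.42 FPKM in liver, muscle and WAT.

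The shares of Cox6a2, Cox7a1 and Cox8b in their pairs were higher in muscle than in the other tissues, while the control shares of Cox4i2 overlapped between muscle and WAT. Cox6a2, the heart and muscle form of subunit 6a, made up 97.3 ± 0.787% of the summed FPKM of Cox6a1 and Cox6a2 in control muscle and 0.135 ± 0.200% in control WAT (SD, n = 4 each). In control mice it averaged 1296 FPKM in muscle and 1.05 FPKM in WAT, a log2 difference of -10.12 (SE 0.52, adjusted p = 2.81e-08). Cox6a2 was listed at 0 in all 4 PCOS vehicle livers and was not listed in the table that held the control livers. Its partner Cox6a1 ran the other way, at 34.4 ± 9.07 FPKM in control muscle, 620 ± 97.1 FPKM in control liver and 778 ± 130 FPKM in control WAT. Cox8b, the muscle form of subunit 8, took 93.4 ± 1.27% of its pair in control muscle and 24.3 ± 16.7% in control WAT. In control liver it took 2.0004 ± 1.78%, from 0% to 3.83% by library. Cox7a1, the muscle form of subunit 7a, took 60.9 ± 12.9% of its pair with Cox7a2 in control muscle, 14.2 ± 13.9% in WAT and 2.98 ± 0.679% in liver. Cox4i2, a form of subunit 4 known in human cells to respond to oxygen, stayed at or below 1.82% of its pair in every arm mean. Between control muscle and liver the log2 differences were 7.23 (SE 0.84, adjusted p = 1.42e-05) for Cox8b, 5.37 (SE 0.42, adjusted p = 4.54e-07) for Cox7a1, -4.18 (SE 0.21, adjusted p = 1.08e-08) for Cox6a1 and -2.96 (SE 0.25, adjusted p = 9.02e-07) for Cox8a. Cox7a2 and Cox4i1 did not pass the test, at -0.23 (SE 0.16, adjusted p = 0.211) and 0.10 (SE 0.23, adjusted p = 0.699), and their muscle and liver values overlapped. The share of Cox6a2 was 97.7 ± 0.218% in PCOS vehicle and 97.9 ± 0.443% in roxadustat muscle. The share of Cox4i2 in muscle was 0.938 ± 0.134% in control (0.776% to 1.10%), 0.629 ± 0.340% in PCOS vehicle (0.244% to 0.993%) and 0.558 ± 0.137% in roxadustat mice (0.367% to 0.677%). Cox4i2 itself was low, at 2.56 to 4.82 FPKM in control and 1.65 to 3.30 FPKM in roxadustat muscle, and these levels overlapped. Its level differed by -0.43 (SE 0.22, adjusted p = 0.494) and did not pass the test.

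**Figure D1:**
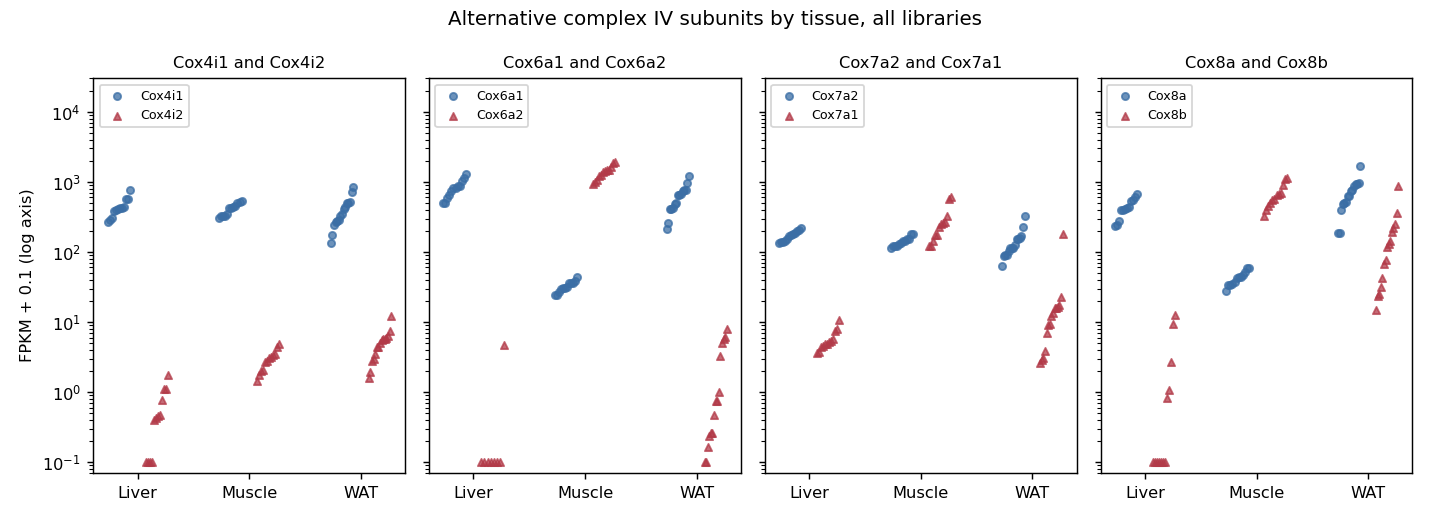
FPKM plus 0.1 of 4 pairs of complex IV isoforms in every liver, muscle and WAT library, on a log axis. Circles are the widespread form and triangles the other form, with libraries sorted by level within a tissue. Cox6a2 and Cox8b exceeded their partners in every muscle library and stayed below them in every WAT library and every liver library where they were listed.

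In WAT the spread of the muscle forms followed single libraries. Cox7a1 was 15.9, 12.1, 9.05 and 178 FPKM in the 4 control libraries, and Cox8b was 253, 116, 145 and 881 FPKM, in the order of mice 778, 779, 789 and 802. The high value was mouse 802 for both. The same library had the highest sum of brown fat markers in WAT, 447 FPKM against 39.2 to 102 FPKM in the other controls. Its Ucp1, the uncoupling protein of brown fat, was at 124 FPKM against 5.07 to 10.3 FPKM. Ucp1 was 40.4 to 72.5 FPKM in PCOS vehicle 770 and 814 and roxadustat 764, 767 and 809, with Cox8b at 68.2 to 221 FPKM. In vehicle 785 Ucp1 was 4.50 FPKM and Cox8b 360 FPKM. In the remaining PCOS WAT libraries Ucp1 was 0 to 0.245 FPKM and Cox8b 14.7 to 42.9 FPKM. In liver the one library with Cox6a2 reads was roxadustat mouse 808, at 4.52 FPKM. Its striated muscle markers summed to 94.5 FPKM, against 0.300 to 1.94 FPKM in the other roxadustat livers. Cox8b was 12.6, 9.40, 0 and 2.60 FPKM in control livers 789, 801, 802 and 804, and 0 to 0.986 FPKM in the other livers. In the same 4 control livers Ucp1 was 7.67, 13.5, 0 and 0 FPKM. Their brown fat markers summed to 394, 418, 305 and 397 FPKM. The part of these markers in the isoform levels was not tested.

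In WAT of PCOS mice on vehicle, 82 of 85 members were lower than in control WAT (median -0.68 on the log2 scale), but no single member passed the adjusted test. Over all genes tested 0.346% were called and the median was 0.00. All 36 complex I genes, all 4 complex II genes, all 9 complex III genes and all 17 complex V genes were lower, and so were 16 of 19 complex IV genes. Complex III had the lowest median (-0.92), followed by complex IV (-0.70), complex I (-0.68), complex V (-0.59) and complex II (-0.41). At an unadjusted p under 0.05 there were 41 members, and limma with voom weights on read numbers recovered from the FPKM also called 0. Sample quality weights called 32 members, and leaving out vehicle mouse 785 gave 6. By the authors' deposited table, 6 of 85 members had an adjusted p under 0.05, all lower in PCOS vehicle WAT. No share over all genes stands beside the counts at an unadjusted p, in these alternative fits or in that table.

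The 3 members with the lowest p were Ndufc1 and Ndufs5, accessory subunits of complex I, and Cox7b, a subunit of complex IV. Ndufc1 was 42.1, 36.2, 35.2 and 70.0 FPKM in control WAT and 17.3 to 26.8 FPKM, with a median of 22.98, in PCOS vehicle WAT. The groups did not overlap, and the log2 difference was -0.97 (SE 0.22, adjusted p = 0.0823). Cox7b was 98.5, 84.2, 70.0 and 188 FPKM in controls and 39.6 to 60.2 FPKM (median 46.2) in PCOS vehicle WAT, again without overlap, and the difference was -1.10 (SE 0.26, adjusted p = 0.0891). Ndufs5 was 161, 153, 137 and 261 FPKM in controls and 56.9 to 125 FPKM (median 91.0) in PCOS vehicle WAT, a log2 difference of -1.01 (SE 0.28, adjusted p = 0.160). Control mouse 802 was the highest control library for all 3 genes. The arms of 4 members (these 3 and Ndufv2) did not overlap, against 3.15% of all genes tested.

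The 3 members that were not lower were Cox4i2, Ndufa4l2 and Cox6a2. Cox6a2 was 3.15 to 7.77 FPKM in control 789, vehicle 770 and 773 and roxadustat 767 and 809. Striated muscle markers summed to 116 to 334 FPKM in those libraries. In all other WAT libraries Cox6a2 was 0 to 0.917 FPKM and the markers summed to 6.67 to 71.4 FPKM. The part of muscle transcripts in the level of Cox6a2 was not tested. Ndufa4l2, a paralogue of the complex IV subunit Ndufa4 known as a HIF target, was 9.24 ± 4.43 FPKM in control and 12.3 ± 4.996 FPKM in PCOS vehicle WAT (SD, n = 4 and 6), a difference of 0.41 (SE 0.34, adjusted p = 0.680). Cox4i2 was 3.77 ± 2.44 FPKM in controls and 6.32 ± 3.24 FPKM in PCOS vehicle (adjusted p = 0.501). Neither difference exceeded the spread between libraries. The share of Ndufa4l2 in its pair with Ndufa4 was 4.63 ± 2.91% in control, 8.51 ± 2.78% in PCOS vehicle and 8.11 ± 1.99% in roxadustat WAT. Ndufa4 itself averaged 222 ± 84.2, 136 ± 48.5 and 122 ± 43.6 FPKM in the same order.

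Between PCOS mice on roxadustat and control mice 17 of 85 members fell in WAT and none rose. The percentage called over all genes tested was 5.79%, and 2.65% for genes that fell. The 17 were 6 genes of complex I (Ndufb1, Ndufa3, Ndufb9, Ndufb7, Ndufa7 and Ndufs5), 3 of complex III (Uqcrb, Uqcr10 and Uqcrh), 7 of complex V (Atp5l, Atp5k, Atp5mpl, Atp5h, Atp5j, Atp5md and Atp5e) and Cox5b-ps of complex IV, with none of complex II. Values were lower for 81 of 85 members and the median was -0.83. The arms of 27 members did not overlap, all with the roxadustat arm lower, against 12.3% of all genes tested with arms that did not overlap in either direction. This comparison joins the effect of letrozole and of the drug, and it uses the same control libraries as the comparison with vehicle.

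Ndufb1, an accessory subunit in the membrane arm of complex I (chr12:101934349-101943327 in mm39, minus strand), was 46.5, 34.9, 37.7 and 76.6 FPKM in control WAT and 23.1, 16.4, 20.6, 16.9 and 17.7 FPKM in roxadustat WAT. PCOS vehicle libraries ran from 11.8 to 39.7 FPKM with a median of 21.8. Every roxadustat library lay below every control library, and the vehicle libraries reached into both ranges. The log2 difference was -1.29 (SE 0.22, adjusted p = 0.0167). Ndufa3, another accessory subunit (chr7:3620372-3623326), was 83.7, 101, 90.5 and 158 FPKM in controls, 61.2, 40.7, 25.0, 33.3 and 38.8 FPKM on roxadustat and 24.3 to 143 FPKM (median 53.9) on vehicle. Its log2 difference was -1.45 (SE 0.26, adjusted p = 0.0198). Ndufb9, also an accessory subunit of the membrane arm, was 117, 112, 108 and 204 FPKM in controls and 92.2, 53.8, 21.3, 44.9 and 43.7 FPKM on roxadustat, with separate arms (-1.49, SE 0.36, adjusted p = 0.0393).

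In complex V, Atp5l, subunit g of the membrane part of ATP synthase (chr9:44823855-44832040, minus strand), was 28.7, 27.0, 23.3 and 46.8 FPKM in controls and 19.5, 14.0, 10.2, 11.04 and 12.5 FPKM on roxadustat, a log2 difference of -1.18 (SE 0.23, adjusted p = 0.0230). Atp5k, subunit e, was 116, 106, 81.2 and 288 FPKM in controls and 74.1, 49.2, 31.1, 38.8 and 44.1 FPKM on roxadustat (-1.51, SE 0.35, adjusted p = 0.0369). The arms of both genes were separate, Atp5k by the narrower margin. Atp5mpl, a small membrane subunit, was 68.9, 77.1, 52.2 and 132 FPKM in controls and 49.5, 33.0, 24.4, 28.8 and 30.2 FPKM on roxadustat, again without overlap (-1.26, SE 0.27, adjusted p = 0.0288). Atp5a1 and Atp5b, the alpha and beta subunits of the head of ATP synthase, differed by -0.18 and -0.23 (adjusted p = 0.648 and 0.589), less than the spread between libraries.

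In complex III, Uqcr10, a small accessory subunit (chr11:4651973-4654342, minus strand), was 276, 350, 345 and 494 FPKM in controls and 262, 172, 87.5, 127 and 149 FPKM on roxadustat, and the difference was -1.26 (SE 0.30, adjusted p = 0.0390). Uqcrb, the ubiquinone-binding subunit, was 165, 125, 81.0 and 180 FPKM in controls and 78.5, 71.2, 32.8, 44.1 and 54.9 FPKM on roxadustat (-1.29, SE 0.30, adjusted p = 0.0363). Roxadustat mouse 764 came closest to the controls for both. Cox5b-ps, annotated as protein-coding but a near copy of Cox5b, was 49.8, 63.0, 68.0 and 99.1 FPKM in controls and 35.4, 22.3, 6.46, 15.04 and 19.4 FPKM on roxadustat. Its difference of -1.94 (SE 0.39, adjusted p = 0.0256) was the lowest of the 17, and reads of Cox5b could have been split between the pair. Cox5b itself was at -1.53 (SE 0.44, adjusted p = 0.0617). Genes of 38 of the 85 members overlap another listed gene, including 8 of the 17 that fell, and whether counting used strand was not stated, so their levels may hold reads of the neighbour.

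**Figure D2:**
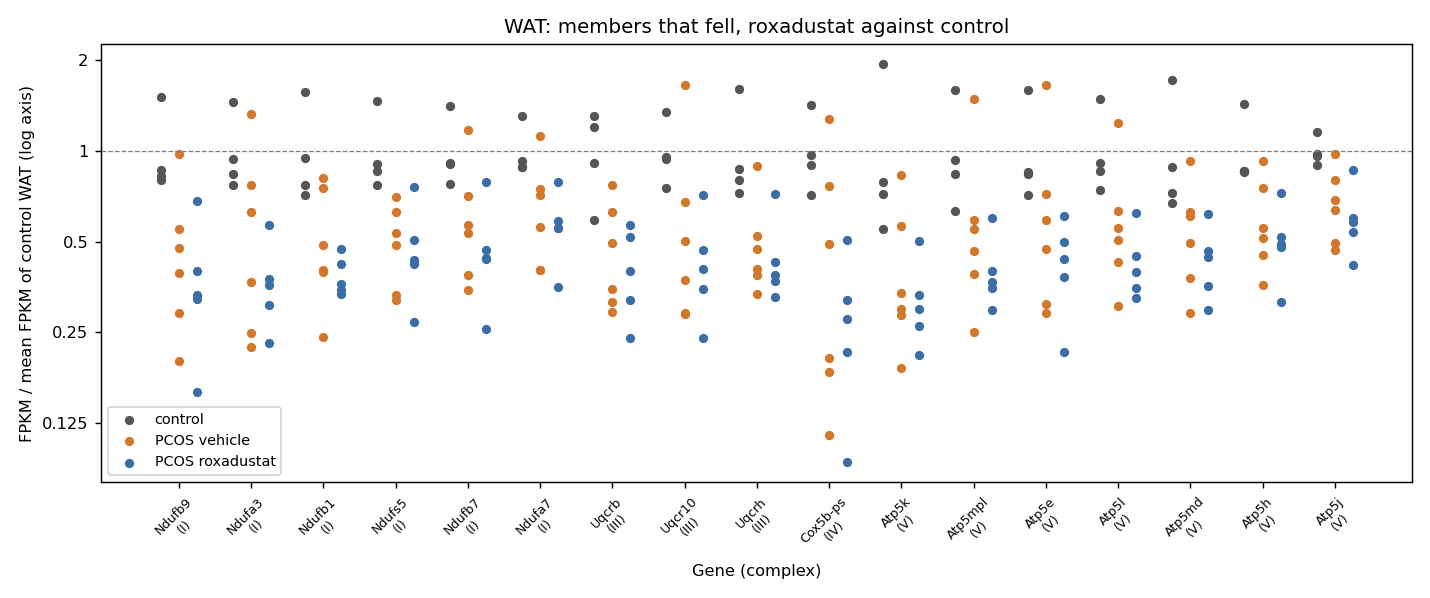
FPKM of the 17 members that fell in WAT of PCOS mice on roxadustat against control, divided by the mean of the 4 control libraries, on a log axis. Each point is 1 library. The highest point is a control (grey) except for Uqcr10 and Atp5e, where it is vehicle mouse 785. Roxadustat points (blue) lie below all control points for 16 of the 17 genes. Vehicle points (orange) reach into or above the control range for every gene but Ndufs5.

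The calls in this comparison rested on few libraries. Leaving out 1 library at a time gave 0 to 46 called members: 0 without roxadustat mouse 809, 1 without roxadustat mouse 795, 2 without control mouse 778, 3 without control mouse 779 or 802, 4 without roxadustat mouse 767, 9 without roxadustat mouse 782, 11 without control mouse 789 and 46 without roxadustat mouse 764. The median stayed between -1.02 and -0.64 in these fits. With all 3 arms in 1 fit 0 members were called, and with no filter on low values 2 were. Voom called 25 and sample quality weights 43. None of the counts in these alternative fits has a share over all genes beside it.

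Among genes measured beside the members, cytosolic ribosomal protein genes differed in the same way. In WAT 78 of 80 were lower in PCOS vehicle than in control (median -0.57, 0 called) and 79 of 80 were lower on roxadustat than in control (median -0.85, 23 fell). Gene length moved with the difference as well. In roxadustat against control WAT, the 22 members of up to 1000 bases had a median of -1.02 and the 10 over 4000 bases a median of -0.37, while other genes of the same classes had medians of -0.29 and 0.09. Without the trend over gene length the median of the members was -0.65 and 20 were called, a count with no share over all genes beside it. Mitochondrially encoded transcripts took 18.02 ± 4.62% of reads in control, 9.85 ± 2.68% in PCOS vehicle and 9.42 ± 2.86% in roxadustat WAT (SD, n = 4, 6 and 5). Mesothelial and epithelial markers summed to 30.0 to 66.0 FPKM in control, 4.71 to 15.9 in PCOS vehicle and 6.17 to 17.8 in roxadustat WAT, with 10 of 10 tested markers lower in both comparisons, 1 and 6 of them called, and no marker at 0 in all libraries of an arm. Macrophage markers summed to 166 to 262, 274 to 492 and 257 to 1119 FPKM, with 12 of 12 higher in both comparisons and 0 and 2 called. Adipocyte markers summed to 20631 to 28883, 14211 to 48966 and 12724 to 26577 FPKM, with 11 of 14 higher in both comparisons and 0 and 1 called. The part of ribosomal protein genes, length and these markers in the member results was not tested.

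**Figure D3:**
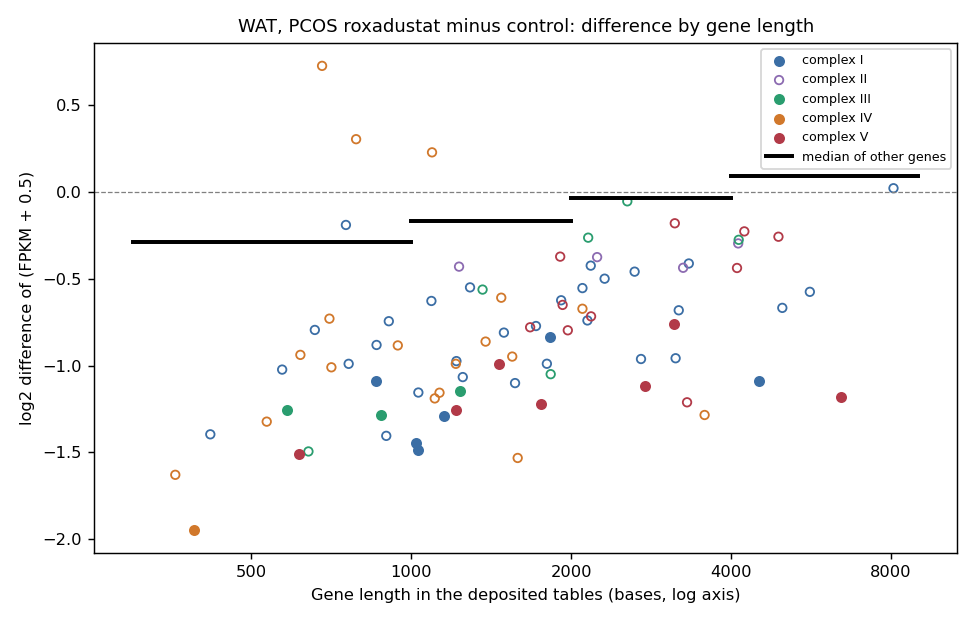
Log2 difference of each member between PCOS roxadustat and control WAT against the gene length in the deposited tables, on a log axis. Colours mark complexes, filled points are members that fell and black lines are the medians of other genes in 4 length classes, from -0.29 for genes of up to 1000 bases to 0.09 for genes over 4000 bases. The medians of the members in the same classes run from -1.02 to -0.37.

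Between roxadustat and vehicle in PCOS mice no member was called in WAT, where 0% of all genes tested were called. At an unadjusted p under 0.05 there was 1 member, Ndufs1, and the voom fit also called 0. Of 85 members 66 were lower on roxadustat, with a median of -0.16. Ndufs1 was 7.9996 to 13.6 FPKM with a median of 9.16 on vehicle and 14.1, 17.5, 9.61, 11.6 and 13.0 FPKM on roxadustat. The arms overlapped, and the log2 difference was 0.40 (SE 0.18, adjusted p = 0.99998). Cox4i2 and Atp5l, next by p, differed by -0.45 (SE 0.30) and -0.40 (SE 0.29), both with an adjusted p of 0.99998. Over all settings and omissions of 1 library the median of the members ran from -0.32 to 0.07, so its sign was not stable.

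Promoters of members that fell together in WAT, and of an isoform pair that separated the tissues, were read for letters of motifs linked to respiratory genes. RefSeq promoters of GRCm38.p6 covered 68 of the 85 members, and the 250 bases before the start site were searched on both strands. The letters were CCGGAA for the ETS family factor GABP, AAGGTCA for oestrogen-related receptors (ERR), AAGATGG for YY1, ACGTG for the core of HIF sites, and the palindromic NRF1 site by its name. The GABP letters were in 29.4% of member promoters and 13.6% of all 27025 promoters, the NRF1 letters in 7.35% and 1.12%, the ERR letters in 7.35% and 4.70%, the HIF core in 22.1% and 18.5%, and the YY1 letters in 1.47% and 5.18%. Of 13 promoters from the 17 genes that fell, 6 held the GABP letters, 4 the HIF core, 2 the ERR letters, 1 the YY1 letters and 0 the NRF1 letters. Matches of letters are a description and do not show binding. The sequences below run 5′ to 3′ towards the start site, and capitals mark the matches.
Atp5l, which fell in WAT, chr9:44920743-44920992 (GRCm38.p6, minus strand), with GABP, HIF core and ERR letters, the HIF core read on both strands within CACGTG:
Atp5l: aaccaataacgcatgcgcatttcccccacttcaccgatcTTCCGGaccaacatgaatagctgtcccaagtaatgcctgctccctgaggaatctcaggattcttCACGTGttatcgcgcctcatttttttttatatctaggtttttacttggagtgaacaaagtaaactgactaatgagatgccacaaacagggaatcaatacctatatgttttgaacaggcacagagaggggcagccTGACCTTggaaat
Ndufs5, which fell in WAT, chr4:123718187-123718436 (minus strand), with ERR letters:
Ndufs5: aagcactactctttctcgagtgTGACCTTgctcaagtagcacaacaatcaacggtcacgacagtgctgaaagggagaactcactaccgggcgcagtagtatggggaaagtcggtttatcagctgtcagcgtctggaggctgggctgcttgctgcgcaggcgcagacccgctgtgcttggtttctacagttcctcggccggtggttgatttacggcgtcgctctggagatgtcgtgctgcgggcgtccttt
Uqcrh, the hinge subunit of complex III, which fell in WAT, chr4:116075071-116075320 (minus strand), with GABP letters:
Uqcrh: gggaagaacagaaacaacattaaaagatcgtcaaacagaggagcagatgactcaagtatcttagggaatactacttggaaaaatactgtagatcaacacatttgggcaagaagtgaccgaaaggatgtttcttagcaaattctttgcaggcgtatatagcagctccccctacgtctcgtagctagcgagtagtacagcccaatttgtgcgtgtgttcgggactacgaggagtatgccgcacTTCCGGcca
Cox8a, the widespread form of subunit 8, chr19:7217617-7217866 (minus strand), with no match:
Cox8a: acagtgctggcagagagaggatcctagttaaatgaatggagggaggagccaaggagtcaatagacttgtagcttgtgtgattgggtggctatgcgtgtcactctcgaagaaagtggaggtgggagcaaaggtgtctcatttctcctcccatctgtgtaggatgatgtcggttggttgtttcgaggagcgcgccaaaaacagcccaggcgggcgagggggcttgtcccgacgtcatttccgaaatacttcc
Cox8b, the muscle form of subunit 8, chr7:140900447-140900696 (minus strand), with the HIF core:
Cox8b: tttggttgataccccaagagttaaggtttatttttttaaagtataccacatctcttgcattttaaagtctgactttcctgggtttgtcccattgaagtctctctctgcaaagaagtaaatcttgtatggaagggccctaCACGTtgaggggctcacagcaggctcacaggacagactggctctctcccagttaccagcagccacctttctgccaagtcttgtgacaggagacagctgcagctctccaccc

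In liver the direction was the opposite. In PCOS vehicle livers 73 of 82 members tested were higher than in control livers, with a median log2 difference of 0.48, and no member passed the adjusted test, while 0.820% of all genes were called. At an unadjusted p under 0.05 there were 40 members, and the voom fit called 2. Of 84 members, 15 had an adjusted p under 0.05 in the authors' deposited table, all higher in PCOS vehicle liver. These counts have no share over all genes beside them and do not show that members stood out from other genes. The difference was uneven between complexes. Of complex I genes 35 of 36 were higher (median 0.51), as were 14 of 16 of complex IV (0.50), 13 of 17 of complex V (0.48), 9 of 9 of complex III (0.16) and 2 of 4 of complex II (0.06). Arms did not overlap for 36 of 82 members, all higher in PCOS vehicle, against 7.09% of all genes tested.

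Cox5b, a nuclear subunit of complex IV that binds zinc, was 97.9, 68.8, 133 and 83.6 FPKM in control livers and 185, 362, 174 and 216 FPKM in PCOS vehicle livers. The groups did not overlap, mouse 773 was the highest, and the log2 difference was 1.26 (SE 0.27, adjusted p = 0.0783). Ndufb4, an accessory subunit of complex I, was 47.7, 49.3, 58.0 and 45.05 FPKM in controls and 76.3, 107, 74.4 and 92.1 FPKM on vehicle, a difference of 0.79 (SE 0.18, adjusted p = 0.0888). Cox5b-ps followed Cox5b at 1.39 (SE 0.31, adjusted p = 0.0933). The catalytic subunits Atp5b and Sdha and the core subunit Ndufs1 differed by -0.01 (SE 0.20), -0.08 (SE 0.20) and -0.08 (SE 0.17), with adjusted p of 0.990, 0.903 and 0.879. In a list of 12 central subunits of the 5 complexes, which includes Cox5b, 7 were higher and the median was 0.09.

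As in WAT, short genes and ribosomal protein genes differed the same way as the members. Members of up to 1000 bases had a median of 0.73 and those over 4000 bases a median of 0.16, against 0.23 and -0.06 in other genes, and 66 of 80 cytosolic ribosomal protein genes were higher (median 0.33). Removing the trend over gene length left a median of 0.34 with 64 members higher. The sum of FPKM over all members was 7309 to 9808 in control livers and 10982, 18528, 11336 and 12757 in PCOS vehicle livers, the highest being mouse 773. Without that mouse the median was 0.32 with 69 of 83 members higher. Their part in the result was not tested.

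Against vehicle, roxadustat livers had 64 of 82 members lower, with a median of -0.16 and 0 calls, while 0% of all genes were called. There was 1 member at an unadjusted p under 0.05, and the voom fit called 0. Ndufb1 was 52.8, 96.2, 40.7 and 90.3 FPKM on vehicle and 43.8, 53.4, 40.4 and 26.7 FPKM on roxadustat, a difference of -0.72 (SE 0.31, adjusted p = 0.9997). Ndufb3, an accessory subunit of complex I, was 102, 133, 104 and 136 FPKM on vehicle and 101, 95.8, 90.9 and 53.1 FPKM on roxadustat. Its arms were separate by a narrow margin (-0.51, SE 0.23, adjusted p = 0.9997). Roxadustat mouse 808 was the lowest for both, and its sum over all members was 7610 FPKM against 11499 to 13291 FPKM in the other roxadustat livers. The median of the members ranged from -0.25 to 0.02 over all settings, so its sign was not stable.

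Roxadustat livers against control livers had 77 of 82 members higher (median 0.25), with 0 calls and 0% of all genes called, 3 members at an unadjusted p under 0.05 and 0 in the voom fit. The 3 were Ndufb10 (0.54, SE 0.22, adjusted p = 0.600), Atp5g2 (0.59, SE 0.26, adjusted p = 0.614) and Ndufa10 (0.38, SE 0.17, adjusted p = 0.614). Ndufb10 was 128, 105, 140 and 93.9 FPKM in control, 158, 277, 164 and 158 FPKM in vehicle and 198, 153, 215 and 121 FPKM in roxadustat livers. The control and roxadustat arms overlapped. Leaving out mouse 808 gave 1 called member, with no share over all genes beside it.

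In muscle the medians were nearer 0 than in liver or WAT. In PCOS vehicle against control muscle 77 of 84 members were higher, with a median of 0.15 and differences from -0.44 to 0.41, and 0 were called against 0.104% of all genes. No member reached an unadjusted p under 0.05, and the voom fit called 0. Uqcrc1, a core subunit of complex III, was 155, 184, 186 and 173 FPKM in control and 171, 271, 218 and 215 FPKM in PCOS vehicle muscle (0.31, SE 0.14, adjusted p = 0.797). Cyc1, cytochrome c1 of complex III, and Atp5d, the delta subunit of ATP synthase, differed by 0.29 (SE 0.14) and 0.25 (SE 0.12), with an adjusted p of 0.810 for both. The arms of all 3 genes overlapped.

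Between roxadustat and vehicle the muscle values were level, with 35 of 84 members higher, a median of -0.02, 0 calls against 0% of all genes, 0 members at an unadjusted p under 0.05 and 0 in the voom fit. The lowest p belonged to Ndufs1, at 50.5, 48.1, 45.5 and 54.0 FPKM on vehicle and 39.4, 48.5, 48.9 and 42.1 FPKM on roxadustat (-0.15, SE 0.11, adjusted p = 0.99995). Ndufc2 (0.17, SE 0.13) and Ndufa9 (-0.13, SE 0.12) followed. Against control, roxadustat muscle had 70 of 84 members higher (median 0.14) and 0 called, against 0.349% of all genes, with 4 members at an unadjusted p under 0.05 and 0 in the voom fit. Ndufc2, an accessory subunit of complex I, was 104, 107, 99.4 and 92.2 FPKM in control and 115, 146, 116 and 123 FPKM on roxadustat. Ndufs7, a core iron-sulphur subunit, was 202, 225, 226 and 188 FPKM in control and 240, 347, 243 and 283 FPKM on roxadustat. The arms of both were separate, with differences of 0.30 (SE 0.11) and 0.39 (SE 0.14) and an adjusted p of 0.356 for each. Control mouse 802 stood above the other control muscles, with a sum over members of 20999 FPKM against 12228 to 13553 FPKM.

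**Figure D4:**
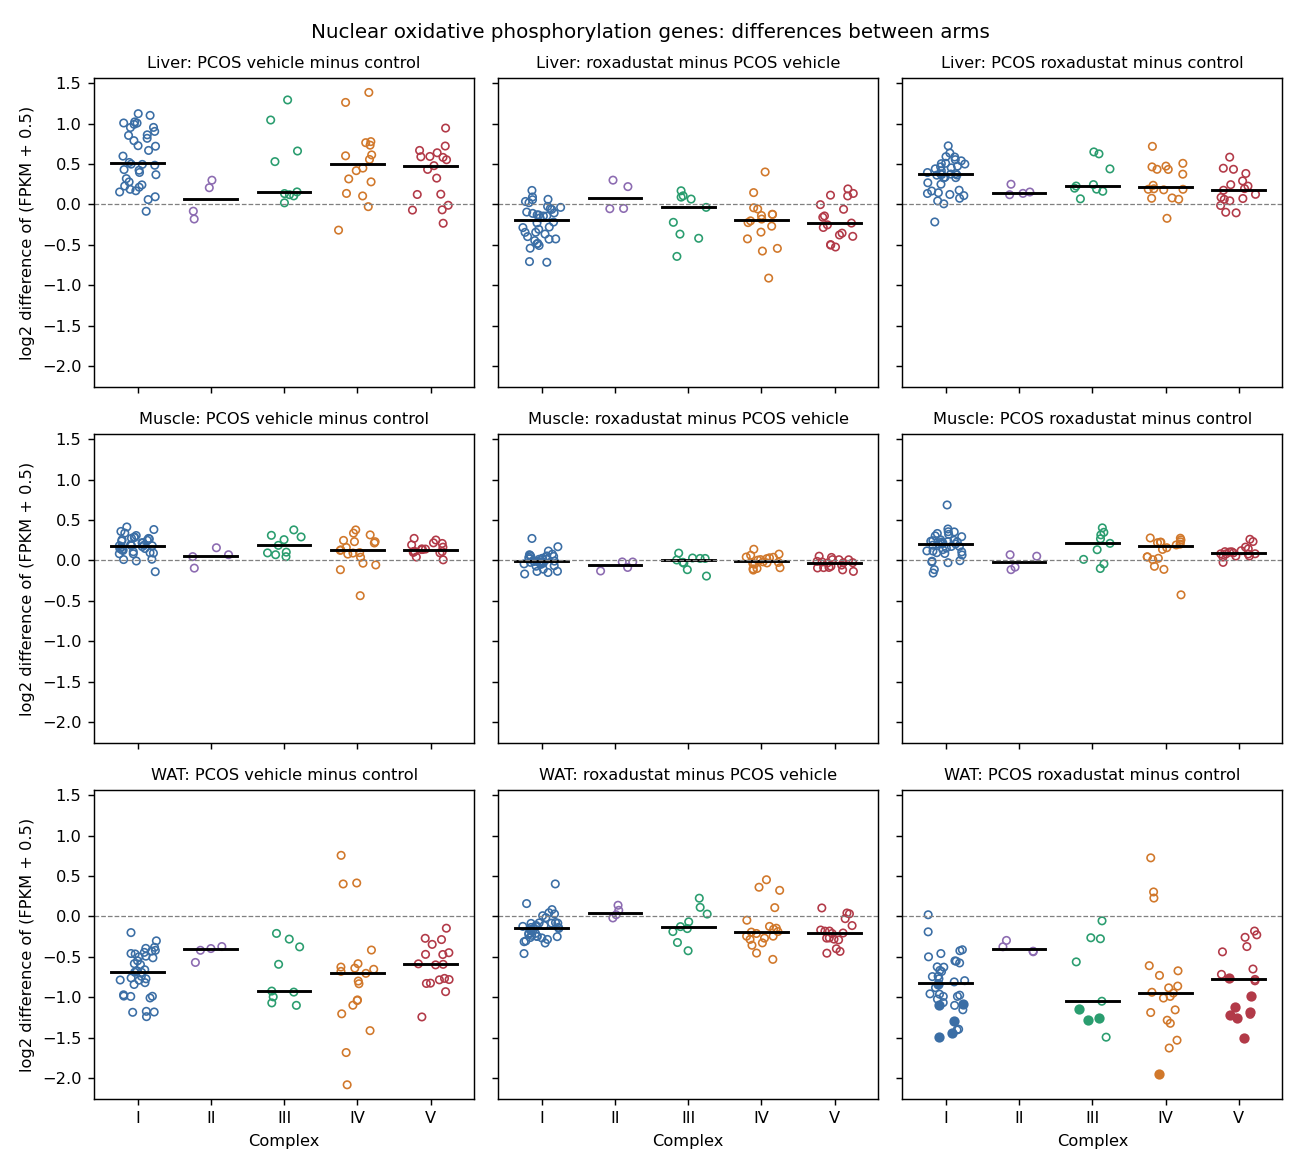
Log2 difference of (FPKM + 0.5) for each member by complex, in 3 tissues (rows) and 3 comparisons of arms (columns). Open points did not pass the test, filled points did, and bars are medians of a complex. Medians are above 0 in all complexes of PCOS vehicle liver and below 0 in all complexes of both PCOS arms of WAT against control, and among these 9 panels only roxadustat against control WAT holds filled points.

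The difference between PCOS vehicle and control was itself compared between tissues. It was lower in WAT than in liver for 81 of 84 members, with a median difference of -1.11, and 4 members were called, all lower in WAT. Over all genes tested 0.756% were called, and 0.518% in that direction. The 4 were Ndufa5 (-2.23, SE 0.50, adjusted p = 0.0405), Ndufs5 (-1.73, SE 0.37, adjusted p = 0.0364), Cox7b (-1.55, SE 0.34, adjusted p = 0.0364) and Ndufc1 (-1.34, SE 0.29, adjusted p = 0.0370). Ndufa5, an accessory subunit in the arm of complex I that faces the matrix, was 104, 91.4, 119 and 76.5 FPKM in control livers and 144, 302, 153 and 206 FPKM in PCOS vehicle livers. In WAT it was 80.8, 77.3, 47.1 and 182 FPKM in controls and 24.4 to 70.9 FPKM (median 33.2) on vehicle. The liver groups were apart with vehicle higher, and the WAT groups overlapped with vehicle mostly lower.

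These 4 calls depended on single libraries. Leaving out 1 library gave 0 to 40 called members, the 40 without vehicle WAT mouse 785, and 0 without any one of control liver 789 or 804, vehicle liver 773 or 814, vehicle WAT 770 or 822, or control WAT 778. It gave 1 without vehicle liver 785, vehicle WAT 796 or control WAT 802, and 2 without control liver 801, control WAT 779 or vehicle WAT 814. Removing the trend over gene length left 1 call. With mouse as a block the count was 4. Shares over all genes are not given for these alternative fits.

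Between WAT and muscle the same difference was lower in WAT for 82 of 85 members (median -0.86), with 0 called against 0.154% of all genes and 30 members at an unadjusted p under 0.05. Between muscle and liver it was lower in muscle for 67 of 84 members (median -0.35), with 0 called against 0.504% of all genes and 2 at an unadjusted p under 0.05. The difference between roxadustat and vehicle was compared in the same way. No member was called between WAT and liver, WAT and muscle or muscle and liver, where 0% of all genes were called each time, and 0, 1 and 0 members had an unadjusted p under 0.05.

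**Figure D5:**
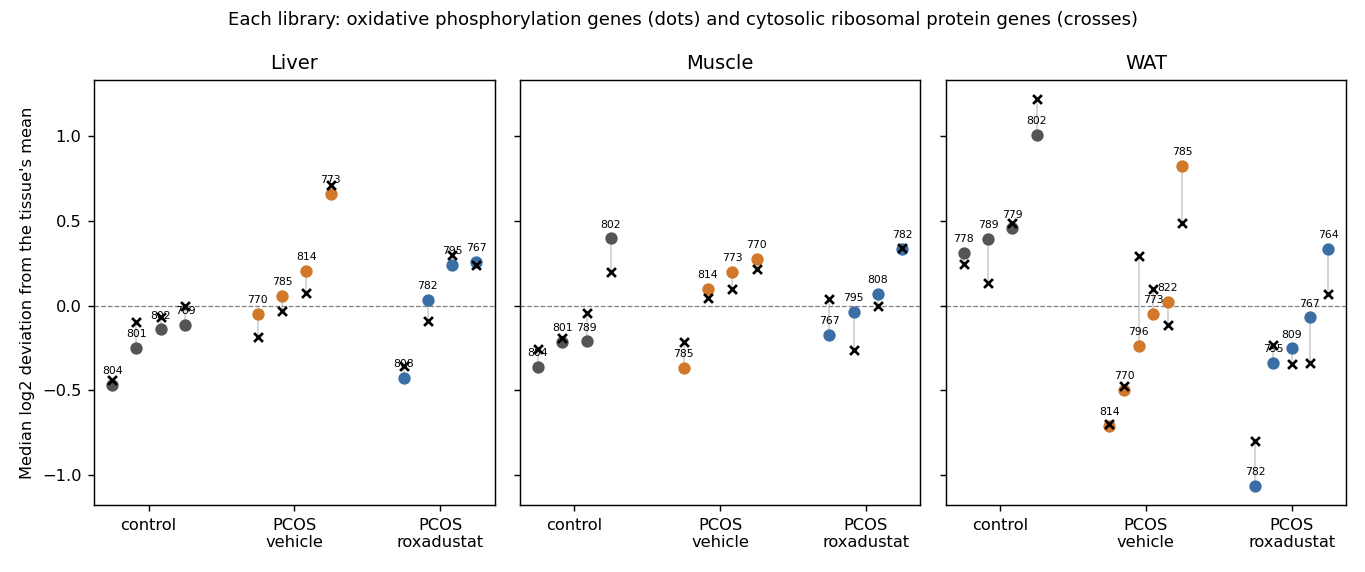
Median log2 deviation of the members from their tissue's mean in each library (dots, with the mouse number) and the same for cytosolic ribosomal protein genes (crosses), by tissue and arm. In WAT, control mouse 802 (1.01) and vehicle mouse 785 (0.82) lie highest and roxadustat mouse 782 (-1.06) lowest, and in liver, vehicle mouse 773 (0.66) lies highest.

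Single libraries moved all complexes together. The sum of FPKM over members was 9786, 10578, 10198 and 16539 in control WAT (mice 778, 779, 789 and 802), 4079 to 8160 in 5 of the 6 PCOS vehicle libraries with 15299 in mouse 785, and 9836, 7772, 3399, 5974 and 6496 on roxadustat. The vehicle library of mouse 785 had the fewest genes with a read of all libraries, 14082, and 316 genes of 1 to 3 reads. Without it the median of the members in PCOS vehicle against control WAT was -0.85 and 6 were called. Without control mouse 802 the median was -0.52 and 0 were called. Libraries with under 1500 genes of 1 to 3 reads were spread unevenly, at 2 of 4 control, 4 of 6 vehicle and 1 of 5 roxadustat WAT libraries and 3, 1 and 1 of 4 livers. A term for them in the comparison of roxadustat with control WAT, chosen after seeing the data, gave 60 called members and a median of -1.04. Shares of all genes called are not given with this term or for the fits without mouse 785 or 802. What set these libraries apart was not tested.

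Other genes of the pathway were counted from lists drawn up beside the members. A list of factors that assemble the complexes, which also held Ndufab1, the acyl carrier protein that is itself a subunit of complex I, was lower for 44 of 52 genes in PCOS vehicle WAT (median -0.23, 0 called) and in 38 of 52 on roxadustat (median -0.21), where Ndufab1 fell by 0.83 (SE 0.18, adjusted p = 0.0316) and Higd1a fell by 0.76 (SE 0.19, adjusted p = 0.0450) on the log2 scale. In PCOS vehicle liver 38 of 51 were higher (median 0.25, 0 called). The 13 mitochondrially encoded genes were all lower in PCOS vehicle WAT (median -0.96, 0 called) and 11 of 13 were lower on roxadustat, where mt-Nd3 fell (-2.35, SE 0.45, adjusted p = 0.0229). In PCOS vehicle liver 10 of 13 were higher with a median of 0.11.

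Genes around the respiratory chain differed less evenly. Of 10 genes for cytochrome c and carriers, 8 were lower in roxadustat against control WAT, and Ucp2, an uncoupling protein that macrophages also express, rose by 0.99 (SE 0.22, adjusted p = 0.0353). Of 18 genes of the tricarboxylic acid cycle and pyruvate dehydrogenase, 15 were lower in PCOS vehicle than in control WAT (median -0.27) and 17 were higher on roxadustat than on vehicle (median 0.22), with 0 called in either. Of 19 regulators of mitochondrial biogenesis, 8 were lower in PCOS vehicle WAT, with a median of 0.03 and 0 called. Esrra, the ERR alpha gene, was at -0.48 in WAT (SE 0.31, adjusted p = 0.587) and 0.70 in liver (SE 0.32, adjusted p = 0.440). Of 10 HIF targets that act on mitochondria 5 were higher and 5 lower on roxadustat than on vehicle in WAT, 0 called. Egln3, a HIF prolyl hydroxylase and itself a HIF target, was at 0.65 in WAT (SE 0.24, adjusted p = 0.99998) and 0.51 in liver (SE 0.21, adjusted p = 0.9997).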

How the data were processed

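Polyadenylated RNA (300 ng input) from liver, muscle and WAT was sequenced, with liver and muscle RNA from one extraction kit and WAT RNA from another, per the labels' protocols. The submitters' processing notes name CASAVA 1.8, HISAT2 2.0.5, DESeq2 1.20.0 and the build mm39, while the counting tool and annotation are not given in the sources used here. The authors deposited FPKM per library in 6 tables, together with gene lengths and their own log2 fold changes and p-values per comparison, which are printed only where the authors' deposited table is named.

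Read numbers were recovered from FPKM and length, taking the smallest nonzero product of a library as 1 read. The implied library size came from the same step. By this scale 100% of values were whole within a relative tolerance of 0.001, which large values pass in any case. A count test had been foreseen, but the tables held FPKM, so log2(FPKM + 0.5) was tested with limma 3.58.1 (R 4.3.3, intensity trend), and p-values were adjusted by Benjamini-Hochberg over all genes tested. A gene was tested if it had 10 depth-scaled reads in a number of libraries equal to the smaller arm and 15 reads in total, and it had to be listed for every library compared. Each comparison used the libraries it names. Alternatives were pseudocounts of 0.1 and 1, a mean of 1 FPKM, no filter, voom on recovered reads (arm comparisons), all arms in 1 fit, sample quality weights, mouse as a block, and leaving out each library. Removing a trend over gene length in 20 classes and a term for libraries with under 1500 genes of 1 to 3 reads were chosen after seeing the data. The fits were tested on simulated data with independent libraries and no shift shared by the genes of a library. The planted changes were larger than most member differences between arms. That simulation therefore does not show how the fits perform where single libraries shift many genes. Tables and figures were made with Python 3.11.15, pandas 2.3.3, numpy 2.4.6 and matplotlib 3.10.9.

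Members and gene lists were chosen with earlier results of these data known. Named with values were called members (up to the 8 with the largest change), the 3 with the lowest p where fewer than 3 were called, central subunits, isoform pairs and the highest and lowest member of a complex. Other members named as called complete a count and were named after their values were seen. Tissues of 1 mouse share its number, which pairs them. Over 30 pairs of tissues the deviations of 1 mouse correlated at -0.257 to 0.192 (median -0.00964), with 9 over 0.1. Arms within a tissue hold different mice. The values of 1 member that the rule for named members would give are not reported here, though it is included in the counts and medians.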

Additional observations from a re-analysis of the deposited data

Results flagged for a closer look

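In groups of 4 to 6 libraries, 61 of 425 member levels, sums and isoform shares had 1 library standing apart from the rest of its group by Dixon's criterion. Chance sets about 1 in 20 groups apart, and members of 1 library are not independent. No explanation was tested.

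In control liver the library of mouse 789 stood apart. Atp5b was 159 FPKM (105 to 114 in the others).

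In control muscle the library of mouse 802 stood apart. Atp5b was 802 FPKM (616 to 645 in the others), Atp5g1 was 104 FPKM (72.9 to 77.9 in the others) and Cox4i1 was 498 FPKM (302 to 329 in the others). Cox5b was 292 FPKM (88.5 to 110.2 in the others), Cox7a1 was 603 FPKM (120.2 to 173 in the others) and Cox8a was 59.7 FPKM (33.7 to 34.4 in the others). Cox8b was 1148 FPKM (394 to 505 in the others), Ndufa4 was 358 FPKM (207 to 222 in the others) and Ndufv1 was 174 FPKM (127 to 131 in the others). Sdha was 285 FPKM (223 to 229 in the others). For complex III the sum was 2934 FPKM (1744 to 1919 in the others), the sum over complex IV was 6840.4 FPKM (3187 to 3739 in the others) and the sum over complex V was 4578 FPKM (3177 to 3344 in the others). The sum over all members was 20999 FPKM (12228 to 13553 in the others).

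In control WAT the library of mouse 802 stood apart. Atp5k was 288 FPKM (81.2 to 116 in the others), Cox5a was 78.1 FPKM (47.4 to 51.7 in the others) and Cox6b1 was 645 FPKM (353 to 397 in the others). Cox7a1 was 178 FPKM (9.05 to 15.9 in the others), Cox7a2 was 331 FPKM (152 to 159 in the others) and Ndufb9 was 204 FPKM (108 to 117 in the others). Sdhb was 121 FPKM (77.4 to 79.5 in the others) and Uqcrfs1 was 262 FPKM (178 to 186 in the others). For complex I the sum was 4700.4 FPKM (2741 to 2924 in the others), the sum over complex II was 521 FPKM (367 to 378 in the others) and the sum over complex III was 2464 FPKM (1420.4 to 1558 in the others). For complex IV the sum was 6265 FPKM (3527 to 3803 in the others) and the sum over all members was 16539 FPKM (9786 to 10578 in the others). The Cox7a1 share of its pair was 34.9% (5.62 to 9.34 in the others).

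In PCOS vehicle WAT the library of mouse 785 stood apart. Atp5l was 39 FPKM (9.6 to 19.9 in the others), Atp5mpl was 122 FPKM (20.6 to 48.8 in the others) and Cox4i1 was 841 FPKM (174 to 406 in the others). Cox5a was 71.7 FPKM (24.6 to 40.9 in the others), Cox7a2 was 227 FPKM (91.1 to 124 in the others) and Cox8b was 360.0 FPKM (14.7 to 76.3 in the others). Cyc1 was 152 FPKM (55.6 to 86.5 in the others) and Sdhb was 131 FPKM (50.1 to 65.7 in the others). Uqcr10 was 608 FPKM (105 to 248 in the others), Uqcrc1 was 123 FPKM (37.8 to 65.7 in the others) and Uqcrfs1 was 207 FPKM (105 to 127 in the others). For complex III the sum was 2504 FPKM (563 to 1129 in the others) and the sum over all members was 15299 FPKM (4079 to 8160.4 in the others).

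In PCOS vehicle liver the library of mouse 773 stood apart. Cox4i1 was 759.9 FPKM (398 to 442 in the others), Cox6a1 was 1296 FPKM (810.2 to 871 in the others) and Cox6b1 was 744 FPKM (457 to 462 in the others). Cox8b was 0.726 FPKM (0 in the others), Ndufb10 was 277 FPKM (158 to 164 in the others) and Ndufv1 was 78.2 FPKM (41.1 to 42.6 in the others). For complex III the sum was 3425 FPKM (2024 to 2230.2 in the others). The Cox8b share of its pair was 0.109% (0 in the others).

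In roxadustat liver the library of mouse 808 stood apart. Cox6a2 was 4.52 FPKM (0 in the others), Cox6b1 was 257 FPKM (464 to 496 in the others) and Cox8b was 0.986 FPKM (0 in the others). Ndufa4l2 was 1.3 FPKM (6.39 to 6.79 in the others). For complex I the sum was 2285 FPKM (3767 to 4011 in the others). The Cox6a2 share of its pair was 0.898% (0 in the others) and the Cox8b share of its pair was 0.35% (0 in the others).

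In control liver the library of mouse 801 stood apart. Ndufa10 was 60.1 FPKM (47.3 to 49 in the others) and Ndufb3 was 35.1 FPKM (67.4 to 72.1 in the others).

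In PCOS vehicle muscle the library of mouse 785 stood apart. For complex II the sum was 689 FPKM (835 to 849.7 in the others).

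In roxadustat WAT the library of mouse 782 stood apart. The Cox4i2 share of its pair was 4.11% (0.86 to 1.72 in the others).

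The difference between PCOS vehicle and control was lower in WAT than in liver by limma's test of the difference itself for 4 members. It was -1.55 for Cox7b, -2.23 for Ndufa5, -1.34 for Ndufc1 and -1.73 for Ndufs5 on the log2 scale, and these calls changed with single libraries.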

How the results depend on the processing

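The median difference of the members kept its direction in the 3 tissues for PCOS vehicle against control and roxadustat against control under every setting tried, while that of roxadustat against vehicle changed sign in each tissue. Counts of called members moved more, and those of the alternative fits have no share over all genes beside them. PCOS vehicle against control liver went from 0 to 2 with voom and 0 to 3 leaving out 1 library (3 without control mouse 802), and roxadustat against control liver from 0 to 1 (without roxadustat mouse 808). PCOS vehicle against control WAT went from 0 to 32 with sample quality weights and 0 to 6 leaving out 1 library. Roxadustat against control WAT, with 17, gave 2 without a filter, 0 with all 3 arms in 1 fit, 43 with quality weights, 60 with the term for libraries with few genes of 1 to 3 reads, and 0 to 46 leaving out 1 library. The difference between WAT and liver, with 4, gave 1 without the trend over gene length and 0 to 40 leaving out 1 library, and that between muscle and liver 0 to 1 (without control liver 802). Between control tissues, leaving out 1 library gave counts of 43 to 49 for muscle and liver, 25 to 34 for WAT and liver and 37 to 48 for WAT and muscle. The cause was not tested. With mouse as a block (replicate block) the control counts were 50, 31 and 43 against 47, 32 and 41, the difference between WAT and liver kept 4 calls, and the other 5 differences between tissues had 0. Of the named members' alternative values 886 kept their side of the threshold, 106 lost it, 6 gained it and 0 reversed.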
